A study of Mus musculus with 15 samples.

Results

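Atrial or inflow-like cardiomyocytes were 181 of the 816 heart muscle cells, among 1400 cells in all, that could be scored in this single-cell RNA-seq series of mouse embryonic hearts. The scored cells came from the E8.25, E8.75 and E9.25 libraries and had at least 1000 detected genes and at least 2000 CPM (counts scaled to the same total in every cell) of Tnnt2, cardiac troponin T. Each received 4 scores, the mean log2(CPM + 1) of a marker set z-scored over the 816 cells. The atrial or inflow set held Gal, Vsnl1, Wnt2, Itga6 and Cdo1, and the other sets held outflow genes (Tdgf1, Tnc, Nrp2, Rspo3, Bmp4), Nppa-high chamber genes (Nppa, Nppb, Smpx, Cited1) and Cck-high genes (Cck, Ppp1r17, Cxcl12). A member had the atrial or inflow score as its highest, and that score was at least 0.5. The 635 other gated cells were 179 of the outflow class, 160 of the Nppa-high class, 152 of the Cck-high class and 144 in which no score reached the threshold as the highest.

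The embryos carried Isl1Cre or Nkx2-5Cre together with a Rosa26 tdTomato reporter, a lasting label of every cell in which Cre was once active, passed on at division. Cre is named after Isl1, a factor of second heart field progenitors, or Nkx2-5, a factor of heart progenitors and heart muscle. All embryos carried the reporter, and no embryo without Cre was among them. The Isl1Cre hearts of E8.25 and E8.75 gave 2 libraries each and that of E9.25 gave 1, while the Nkx2-5Cre hearts gave 2 on every day. Both libraries of a group carry the same embryo number in their titles, so the embryo, 6 in all, was taken as the replicate. Differences between lineages or stages therefore cannot be told apart from differences between single embryos, which also differed in sex by their Xist and Y-linked RNA. Both E8.25 embryos had Xist RNA (62.5 CPM in Isl1Cre, 49.7 CPM in Nkx2-5Cre). Both E8.75 embryos had Y-linked RNA (106 and 119 CPM, summed) and little Xist. E8.25 and E8.75 therefore cannot be told apart from sex. At E9.25 Isl1Cre had Y-linked RNA (132 CPM) and Nkx2-5Cre had Xist RNA (83.9 CPM). Gated cells of a library summed to between 5436613 and 19469476 recovered counts. A member cell had a median of 114900 counts and 5677 genes, against 109153 counts and 5824 genes in the other gated cells. No cell name was shared between libraries, and no 2 cells held identical values.

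At these stages the heart tube loops and its chambers begin to form. Blood enters at the inflow end, where the sinus venosus and atria arise from posterior heart field cells, and leaves through the outflow tract at the other end. Tbx5 and the COUP-TF factors Nr2f1 and Nr2f2 are known for specifying atrial muscle, while Irx factors and Hey2 are known for ventricular muscle. Atrial muscle keeps the fast myosin heavy chain gene Myh6, and the slower Myh7 and the ventricular light chain gene Myl2 mark ventricular muscle. Of the marker set, Gal encodes the neuropeptide galanin, Vsnl1 a neuronal calcium sensor, Wnt2 a secreted ligand, Itga6 a laminin receptor subunit and Cdo1 cysteine dioxygenase.

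Members were common at E8.25 and E8.75 and few at E9.25. In Isl1Cre hearts they were 28 of 119 gated cells at E8.25 (23.5%, exact 95% binomial interval 16.2% to 32.2%), 26 of 127 at E8.75 (20.5%, 13.8% to 28.5%) and 3 of 89 at E9.25 (3.37%, 0.701% to 9.54%). In Nkx2-5Cre hearts they were 41 of 157 at E8.25 (26.1%, 19.4% to 33.7%), 76 of 170 at E8.75 (44.7%, 37.1% to 52.5%) and 7 of 154 at E9.25 (4.55%, 1.85% to 9.14%). The Nkx2-5Cre E8.75 embryo stood highest, and its libraries held 41.2% and 48.2% members. The widest gap between libraries of a group was in Isl1Cre at E8.25, with 31.1% and 15.5%. These intervals cover counting error only. The scores were z-scored over all stages together, and set genes themselves changed with stage. At E9.25 Vsnl1 had a count in 1 of 86 Isl1Cre and 5 of 147 Nkx2-5Cre other gated cells. Nppa in the other gated cells went from 172 CPM at E8.25 to 1318 CPM at E9.25 in Isl1Cre, and from 648 to 1436 CPM in Nkx2-5Cre. The shares are those of this rule, and the part of these changes in them was not tested.

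The lineages and the stages could not be separated beyond the spread between embryos. Over stages, the Isl1Cre share was lower than the Nkx2-5Cre share by 9.33 percentage points, lower at 3 of 3 stages, with a two-sided exact permutation p of 0.25, the smallest that the 8 arrangements allow. The share changed by -20.9 percentage points per day, with a two-sided exact permutation p of 0.222 over 36 arrangements. The smallest p this design allows is 0.0556. Without the Nkx2-5Cre E9.25 embryo the slope was 8.51 points per day, so its sign rests on that embryo.

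**Figure D1:**
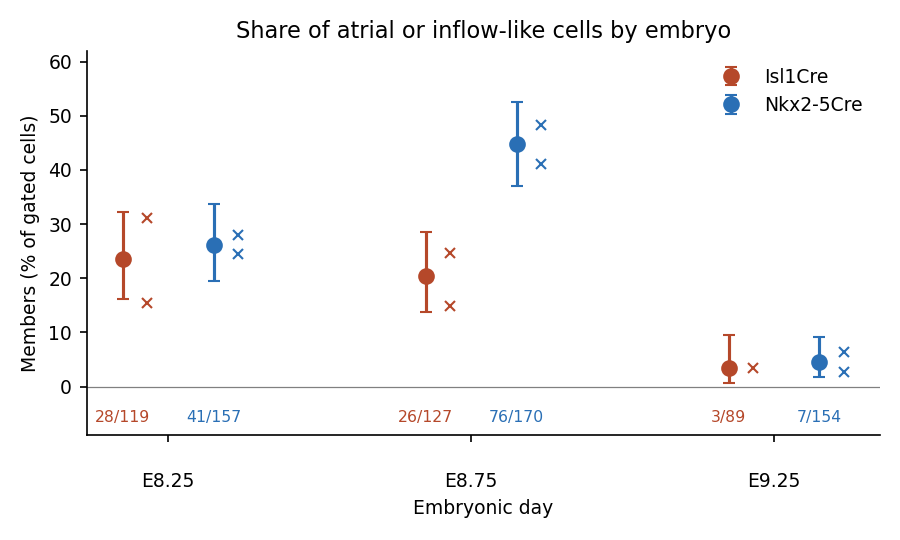
Members as a percent of gated cells at each embryonic day. Circles with bars are embryos with exact 95% binomial intervals, crosses are their libraries, and the numbers under the points are members over gated cells; both E9.25 embryos lie under 5%, and the Nkx2-5Cre E8.75 embryo lies highest at 44.7%.

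Members were chosen by the levels of the 17 set genes and Tnnt2 in the same cells, so these values are given as a description. The atrial or inflow score had a median of 1.39 in members and -0.37 in the other gated cells. The members just inside the threshold scored 0.509, 0.525 and 0.572, and the cells just outside, with this score as their highest, scored 0.487, 0.475 and 0.464. In all, 25 cells had this score highest but under the threshold, and 54 members had a second score of at least 0.5, namely 21 with the Cck-high score, 19 with the outflow score and 14 with the Nppa-high score. All 5 markers were detected in 74 members, 4 in 91 and 3 in 16. Gal was detected in 75.1% of members and 35.6% of other gated cells, Vsnl1 in 68.5% of members and 15.1% of others, Wnt2 in 99.4% of members and 77.8% of others, Itga6 in 98.3% of members and 68.2% of others, and Cdo1 in 90.6% of members and 50.1% of others.

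As a further description, each marker was left out of the score in turn, members were chosen with the other 4, and the omitted gene was compared between these cells and the other gated cells of the same embryo. Its difference, log2 ± SE over 5 embryos, was 2.11 ± 0.45 for Gal, 1.94 ± 0.16 for Cdo1, 1.82 ± 0.49 for Vsnl1, 1.73 ± 0.15 for Itga6 and 1.60 ± 0.11 for Wnt2. It was above 0 in 4 of 5 embryos for Vsnl1 and in 5 of 5 for the other 4 markers. The 5 genes were put together with results of these cells known, so these values carry no test. Here and in all fits across genes, the 5 embryos with at least 5 members entered, and the Isl1Cre E9.25 embryo, with 3 members, did not.

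Across genes outside the sets, members had the factors Hand1 and Tbx5 and atrial genes at higher levels, and several outflow and ventricular genes at lower levels. Of 9147 genes tested, 205 differed between members and the other gated cells at a Benjamini-Hochberg adjusted p under 0.05 (2.24%). Of these 92 were higher (1.01%) and 113 lower (1.24%), with a median over all genes of -0.06 (log2). The adjustment also ran over the 17 set genes and Tnnt2, which are left out of every count. Genes that the rule selects for can ease the threshold for the others. Calls near it, such as Bmp2, Dut and Crabp1, may rest on this, which was not tested. Cells were separated by RNA of the set genes measured in the same cells, so genes that vary with the sets from cell to cell differ by that choice, and the p-values say only how alike the difference was over embryos. The count fell to 59 without the Nkx2-5Cre E8.75 embryo, 73 without Isl1Cre E8.75 and 84 without Nkx2-5Cre E8.25, and was 523 without Nkx2-5Cre E9.25, which held 7 members. Of 66 called genes named below and followed through these fits, 27 passed in all 5; 38 did not pass without Nkx2-5Cre E8.75, 34 without Isl1Cre E8.75, 30 without Nkx2-5Cre E8.25, 13 without Isl1Cre E8.25 and none was lost without Nkx2-5Cre E9.25. Averaging log2 values over cells in place of CPM turned the balance round, with 211 higher and 87 lower. Changes below are log2 differences of log2(mean CPM + 1), members minus other gated cells, ± SE, with limma adjusted p-values, and levels are mean CPM over the cells of an embryo.

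Hand1, a basic helix-loop-helix factor of the early heart tube on chromosome 11 (57828705 to 57832818, mm10), led the genes that rose among those with a mean log2 level of at least 5. It had 39.3 and 233 CPM in Isl1Cre members at E8.25 and E8.75 and 124, 48.4 and 134 CPM in Nkx2-5Cre members at E8.25, E8.75 and E9.25, against 19.9, 29.0, 15.1, 7.20 and 30.6 CPM in the other gated cells of the same embryos. Members were above the other cells within every embryo and above the highest other value throughout, and their own spread was wide. The difference was 2.31 ± 0.27 (adjusted p = 0.00106). Hand1 was detected in 124 of 181 members (68.5%) and 296 of 635 other gated cells (46.6%). Detection shares here and below pool the cells of all embryos, and the mix of stages differs between the groups. At 20000 counts per cell, where 174 members and 558 others remained, the shares were 48.9% of members and 23.1% of others.

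Tbx5, the T-box factor of the inflow and chambers on chromosome 5 (119832668 to 119885219, mm10), had 89.1 and 119 CPM in Isl1Cre members at E8.25 and E8.75. It had 97.4, 105 and 62.7 CPM in Nkx2-5Cre members at E8.25, E8.75 and E9.25, against 46.7, 27.1, 31.3, 24.7 and 17.5 CPM in the other gated cells of the same embryos. The 2 ranges did not overlap, and the levels among members were more alike than those of Hand1. The difference was 1.68 ± 0.20 (adjusted p = 0.00101). Tbx5 was detected in 170 of 181 members (93.9%) and 363 of 635 other gated cells (57.2%), or 71.3% of members and 29.2% of others at 20000 counts per cell. Hand1 and Tbx5 passed in all 5 fits that left out 1 embryo.

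The other leading genes that rose by at least 0.95 included a muscle ubiquitin ligase and a cardiac potassium channel. Maged2, a MAGE family gene on the X chromosome, averaged 389 ± 63.2 CPM in members and 152 ± 37.7 CPM in other gated cells (SD, n = 5 embryos), a difference of 1.35 ± 0.12 (adjusted p = 0.000167). Fbxo32, which encodes the muscle ubiquitin ligase atrogin-1, averaged 155 ± 33.5 CPM in members and 60.9 ± 11.9 CPM in other gated cells, a difference of 1.31 ± 0.16 (adjusted p = 0.00126). Next came Kcnj5 at 1.13, Gm14057 at 1.03, the beta-tubulin gene Tubb2a at 1.02, the matrix glycoprotein gene Fbln1 at 1.02, Nav2 at 1.01, Mllt3 at 0.98, the cytosolic isocitrate dehydrogenase gene Idh1 at 0.97 and the lipid droplet gene Fitm1 at 0.95. Each was higher in 5 of 5 embryos. Of these later 8, only Nav2 passed in all 5 fits that left out 1 embryo; the adjusted p reached 0.0511 for Tubb2a, 0.0688 for Fitm1, 0.0859 for Kcnj5, 0.0940 for Gm14057 and 0.111 for Mllt3 without Nkx2-5Cre E8.75, and 0.105 for Fbln1 and 0.160 for Idh1 without Isl1Cre E8.75.

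Of the genes that fell at the same mean level, Phlda2, an imprinted growth gene, changed most, at -1.58 ± 0.29 (adjusted p = 0.0140). Car4, a membrane carbonic anhydrase gene, averaged 52.3 ± 36.4 CPM in members and 134 ± 72.6 CPM in other gated cells (SD, n = 5), a difference of -1.55 ± 0.19 (adjusted p = 0.00126). Fhl1, a LIM protein of the sarcomere, averaged 63.1 ± 17.4 CPM in members and 161 ± 28.2 CPM in other gated cells, a difference of -1.38 ± 0.15 (adjusted p = 0.000747). Wnt5a, a Wnt ligand of the second heart field, changed by -1.51 and Meis2, a homeobox factor, by -1.35, followed by the thin filament gene Lmod3 at -1.35, Hip1 at -1.34, the cytokine receptor gene Lifr at -1.31, Mtus2 and Ap1s2 at -1.29 each, Spin2c at -1.24 and Myh7 at -1.17. All 12 were lower in 5 of 5 embryos. Without Nkx2-5Cre E8.75, Phlda2 (adjusted p = 0.0688) and Lmod3 (adjusted p = 0.0505) did not pass; the adjusted p reached 0.179 for Hip1 without Isl1Cre E8.75 and 0.153 for Spin2c without Nkx2-5Cre E8.25.

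All called atrial genes were higher in members, while 1.01% of all genes tested were higher and 1.24% lower. Of 18 listed, 14 were tested, 8 were higher and none was lower, with a median of 0.73 against -0.06 over all genes; 13 of the 14 were above 0. Nr2f2, a COUP-TF factor on chromosome 7 (70351944 to 70366735, mm10), had 35.2 and 24.2 CPM in Isl1Cre members at E8.25 and E8.75 and 13.5, 35.6 and 7.54 CPM in Nkx2-5Cre members at E8.25, E8.75 and E9.25, against 16.2, 14.4, 1.33, 7.76 and 0.948 CPM in the other gated cells of the same embryos. It was higher within each embryo, although the 2 ranges overlapped, and the difference was 1.72 ± 0.36 (adjusted p = 0.0269). It was detected in 83 of 181 members (45.9%) and 80 of 635 other gated cells (12.6%). Nr2f1, its relative on chromosome 13 (78188973 to 78199757, mm10), averaged 12.6 ± 6.60 CPM in members and 1.68 ± 0.998 CPM in other gated cells (SD, n = 5), a difference of 2.26 ± 0.50 (adjusted p = 0.0338), and was detected in 40 of 181 members (22.1%) and 6.77% of the others. It entered the test through members alone, since its mean in the other gated cells lay under the filter of a mean of 5 CPM over both groups.

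Kcnj5, a subunit of the acetylcholine-gated potassium channel of atrial muscle, had 47.2 and 40.4 CPM in Isl1Cre members at E8.25 and E8.75 and 37.7, 65.2 and 82.0 CPM in Nkx2-5Cre members at E8.25, E8.75 and E9.25, against 15.1, 23.1, 23.4, 28.9 and 28.4 CPM in the other gated cells of the same embryos. These ranges did not overlap, and the adjusted p was 0.0138. The sarcomere genes of the list rose by less, with Myh6 at 0.76, the embryonic and atrial light chain genes Myl1 at 0.36 and Myl4 at 0.26, and the atrial light chain gene Myl7 at 0.20. Kcna5, an atrial potassium channel gene, differed by 1.54 (adjusted p = 0.331), Stard10, a lipid transfer gene, by 1.30 (adjusted p = 0.232) and Angpt1, an angiopoietin gene, by 0.70 (adjusted p = 0.365), and none of these passed. Sln, Kcnj3, Hey1 and Cav1 fell under the filter of a mean of 5 CPM; Sln, sarcolipin of atrial muscle, had a count in 5 of 181 members and 6 of 635 other gated cells. With each embryo left out in turn, Tbx5 and Myh6 passed in all 5 fits and Nr2f2 in 1, that without Nkx2-5Cre E9.25, while the adjusted p reached 0.207 for Nr2f1, 0.169 for Nr2f2, 0.0859 for Kcnj5 and 0.113 for Myl7 without Nkx2-5Cre E8.75, 0.0864 for Myl1 without Nkx2-5Cre E8.25 and 0.0717 for Myl4 without Isl1Cre E8.75.

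Inflow and sinus venosus genes passed in both directions. Of 15 listed, 8 were tested, 1 was higher and 1 lower, with a median of 0.33, while 2.24% of all genes tested passed. Cacna2d2, a calcium channel subunit gene, rose by 0.70 ± 0.16 (adjusted p = 0.0445, and 0.206 without Nkx2-5Cre E8.25). Isl1 had 1.43 and 1.27 CPM in Isl1Cre members at E8.25 and E8.75 and 1.64, 0.410 and 0 CPM in Nkx2-5Cre members at E8.25, E8.75 and E9.25, against 7.29, 5.43, 17.2, 20.0 and 32.0 CPM in the other gated cells of the same embryos. The ranges did not overlap, and the difference was -3.00 ± 0.56 (adjusted p = 0.0151, and 0.114 without Nkx2-5Cre E8.75). Isl1 did not pass without Nkx2-5Cre E8.25 either. It entered the test through the other gated cells alone, since every member level lay under the filter of a mean of 5 CPM over both groups. Tbx3, a T-box factor of the conduction system, differed by 0.98 (adjusted p = 0.229).

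Defining genes of the sinus node and sinus horn were low in both groups. Shox2, a homeobox factor of the sinus node, had a count in 2 of 181 members and 4 of 635 other gated cells. Tbx18, of the sinus horns, had a count in 18 members (9.94%) and 99 others (15.6%). Hcn4, the pacemaker channel gene, had a count in 26 members (14.4%) and 42 others (6.61%), but in 3.45% of members and 2.87% of others at 20000 counts per cell. Pooled over embryos, Shox2 and Hcn4 had a count in a larger share of members than of others, and Tbx18 in a smaller one. The groups differ in their mix of stages, since E9.25 gave 3 and 7 members, against 86 and 147 other gated cells. The part of stage in these shares was not tested, and Shox2 rests on 2 and 4 cells. All 3 genes lay under the filter of a mean of 5 CPM, so their levels were not tested. Hcn4 averaged 3.43 ± 2.36 CPM in members and 3.45 ± 3.47 CPM in other gated cells (SD, n = 5). The list of posterior field and retinoic acid genes held 20 genes, of which 12 were tested. Against the Nppa-high class alone, none passed and 10 of 12 were above 0 (median 0.34). Against all other gated cells, 10 of 12 were below 0 (median -0.42), none was called higher and 2 were called lower. These were Meis2, at 42.6 ± 15.5 CPM in members and 105 ± 16.7 CPM in other gated cells (SD, n = 5; -1.35 ± 0.17, adjusted p = 0.00126), and Crabp1, a retinoic acid binding protein gene, at -1.42 ± 0.34 (adjusted p = 0.0492, and 0.197 without Nkx2-5Cre E8.75).

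Of 17 ventricular genes, 12 were tested, 1 was higher and 3 were lower (median -0.38), while 1.01% of all genes tested were higher and 1.24% lower. The higher gene was Hand1. Irx2, an Iroquois factor of ventricular muscle, averaged 4.31 ± 3.10 CPM in members and 27.2 ± 6.02 CPM in other gated cells (SD, n = 5), a difference of -2.66 ± 0.43 (adjusted p = 0.00557). Pln, phospholamban, which restrains the calcium pump, had 0 and 0.627 CPM in Isl1Cre members at E8.25 and E8.75 and 6.09, 4.88 and 8.19 CPM in Nkx2-5Cre members at E8.25, E8.75 and E9.25, against 4.05, 9.38, 21.8, 30.0 and 96.1 CPM in the other gated cells of the same embryos. Members were lower within each embryo, and the difference was -2.50 ± 0.37 (adjusted p = 0.00420). Irx2, Pln and Myh7 passed in all 5 fits that left out 1 embryo. Irx2 and Pln averaged under 5 CPM in members, so both entered the test through the other gated cells alone. Myl2 differed by -0.45 (adjusted p = 0.123) and Irx4, a ventricular Iroquois factor, by 0.41 (adjusted p = 0.398).

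Of 15 outflow tract genes, 13 were tested, none was higher and 4 were lower (median -0.67), while 1.24% of all genes tested were lower. Fgf8, a growth factor of the anterior heart field, averaged 11.3 ± 7.25 CPM in members and 47.1 ± 18.5 CPM in other gated cells (SD, n = 5), a difference of -2.09 ± 0.28 (adjusted p = 0.00208). Sema3c, a guidance cue of outflow muscle, changed by -1.58 ± 0.34 (adjusted p = 0.0333), Wnt5a by -1.51 ± 0.24 (adjusted p = 0.00547) and Rgs5, a G protein regulator gene, by -1.21 ± 0.28 (adjusted p = 0.0417). Sema3c reached an adjusted p of 0.197 without Nkx2-5Cre E8.75, and Rgs5 of 0.206 without Isl1Cre E8.75. The other gated cells include the outflow class, in which Fgf8 averaged 102 CPM and Wnt5a 115 CPM over embryos. Fgf8 and Wnt5a averaged 11.3 and 22.0 CPM in members, against 18.5 and 24.96 CPM in the Nppa-high class.

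Sarcomere genes changed in both directions. Of 28 tested, 6 were higher and 5 lower, with a median of 0.02, while 1.01% of all genes tested were higher and 1.24% lower. Against the Nppa-high class alone, none of 28 was higher and 4 were lower (median -0.04). Myh6 had 1448 and 2202 CPM in Isl1Cre members at E8.25 and E8.75 and 1614, 2720.1 and 2699 CPM in Nkx2-5Cre members at E8.25, E8.75 and E9.25, against 1153, 1355, 984, 1465 and 1202 CPM in the other gated cells of the same embryos. The difference was 0.76 ± 0.09 (adjusted p = 0.00126). Myh7 had 265 and 535 CPM in the Isl1Cre members and 544, 394 and 812 CPM in the Nkx2-5Cre members of the same days, against 733, 1138, 951, 1187 and 1478 CPM in the other gated cells. The difference was -1.17 ± 0.11 (adjusted p = 0.000180). Both genes lie on chromosome 14 (Myh6 from 54941921 to 54966927, Myh7 from 54970684 to 54994626, mm10). The antisense RNA Mhrt overlaps Myh7, and, without a statement that the counting used strand, reads of the pair cannot be told apart.

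The ratio of Myh6 to Myh7 was higher in members in all 6 embryos, the 3 Isl1Cre E9.25 members included. It was 5.47, 4.12 and 1.30 in Isl1Cre members at E8.25, E8.75 and E9.25, against 1.57, 1.19 and 0.625 in the other gated cells. It was 2.97, 6.91 and 3.32 in Nkx2-5Cre members at the same days, against 1.03, 1.23 and 0.813 in the other gated cells. The maturing cardiac troponin I gene Tnni3 rose by 0.80 ± 0.10 (adjusted p = 0.00127), tropomyosin Tpm1 by 0.30 and cardiac actin Actc1 by 0.25. Skeletal actin Acta1 averaged 872 ± 297 CPM in members and 1461 ± 373 CPM in other gated cells (SD, n = 5), a difference of -0.77 ± 0.07 (adjusted p = 0.000180). Slow skeletal troponin T, Tnnt1, fell by 1.12, desmin, Des, by 0.54, and smooth muscle actin, Acta2, by 0.23, all on the log2 scale. Des reached an adjusted p of 0.0638 without Isl1Cre E8.75, and Acta2 of 0.168 without Nkx2-5Cre E8.75.

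Among signalling genes, Sfrp5, a secreted Wnt inhibitor of the inflow region, had 157 and 39.0 CPM in Isl1Cre members at E8.25 and E8.75 and 32.6, 56.9 and 33.5 CPM in Nkx2-5Cre members at E8.25, E8.75 and E9.25, against 62.5, 9.13, 19.8, 13.1 and 7.30 CPM in the other gated cells of the same embryos. It rose by 1.61 ± 0.25 (adjusted p = 0.00510), and with Wnt5a it made up the calls among 19 Wnt pathway genes tested (1 higher, 1 lower, median 0.13). Over all genes tested, 1.01% were higher and 1.24% lower. Of 16 BMP and TGF-beta genes tested, 2 were higher and none was lower (median 0.06). These were Bmp2, a ligand of the atrioventricular canal, at 0.95 ± 0.22 (adjusted p = 0.0489, and 0.213 without Nkx2-5Cre E8.75), and Id2, an inhibitor of helix-loop-helix factors, at 0.58 ± 0.09 (adjusted p = 0.00503). None of the 15 tested genes of laminins, their receptors and the basement membrane passed in either direction (median -0.16). The same held for the 2 tested genes of galanin receptors and calcium sensors. Around Cdo1, in cysteine and taurine metabolism, Got1, an aspartate transaminase gene, rose by 0.54 and the taurine transporter gene Slc6a6 fell by 0.96, out of 6 tested. The adjusted p of Got1 reached 0.151 without Nkx2-5Cre E8.25, and that of Slc6a6 0.0927 without Nkx2-5Cre E8.75.

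Cell cycle, metabolic and calcium handling lists held 0 to 2 called genes each, while 2.24% of all genes tested passed. Of 28 S phase genes none was higher and 2 were lower, the helicase subunit gene Mcm6 (-0.55) and the nucleotide hydrolase gene Dut (-0.39), with 27 of 28 below 0 and a median of -0.40. Of 36 G2 and M phase genes, the midbody motor gene Kif23 was higher (0.84) and none was lower (median 0.05). Of 57 oxidative phosphorylation genes 2 were higher, Ndufa4 (0.27) and Cox6b1 (0.30), with 53 above 0 and a median of 0.14. Against the Nppa-high class alone the direction was reversed, with 45 of 57 below 0 and a median of -0.09. No fatty acid oxidation gene of 18 tested passed (median 0.24), and of 22 glycolysis and hypoxia genes hexokinase 1, Hk1, was higher (0.76) and pyruvate kinase, Pkm, lower (-0.24). Of 17 calcium handling genes, triadin, Trdn, was higher (0.61) and Pln lower. With Pln, Hk1 passed in all 5 fits that left out 1 embryo; the other 7 genes of these lists did not pass without Isl1Cre E8.75, Nkx2-5Cre E8.25 or Nkx2-5Cre E8.75, and Mcm6, Dut and Kif23 also not without Isl1Cre E8.25.

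Each of the 6 lists of other cell types had a lower median of its summed level in members than in other gated cells. Over all genes tested, 1.01% were called higher and 1.24% lower. Summed over 14 endothelial genes, levels were 97.5 to 167 CPM in members and 153 to 309 CPM in other gated cells, and of 6 tested 1 was lower (Egfl7, -0.79). Summed over 11 endoderm genes they were 434 to 1763 CPM in members and 857 to 2146 CPM in other gated cells, and 2 of 4 tested were lower, the keratin genes Krt18 (-1.03, adjusted p = 0.0545 without Nkx2-5Cre E8.75) and Krt8 (-0.63), which early heart muscle also expresses. Over 11 mesenchymal genes they were 299 to 607 CPM in members and 508 to 623 CPM in other gated cells, and the collagen gene Col1a2 (-1.90) and versican, Vcan (-0.59), were lower. Of 9 epicardial and proepicardial genes 3 were tested, Krt19 was lower (-1.11) and Mab21l2, a gene of the proepicardial region, higher. Mab21l2 had 9.89 and 38.7 CPM in Isl1Cre members at E8.25 and E8.75 and 12.7, 14.4 and 122 CPM in Nkx2-5Cre members at E8.25, E8.75 and E9.25, against 7.30, 1.89, 2.71, 2.31 and 5.19 CPM in the other gated cells of the same embryos (2.51 ± 0.51, adjusted p = 0.0222, and 0.135 without Isl1Cre E8.75). It entered the test through members alone, since it averaged under 5 CPM in the other gated cells. Of 8 blood genes summed levels were 0 to 206 CPM in members and 0.992 to 1297 CPM in other gated cells, and of 6 neural crest genes 4 were at 0 in all members fitted. Of 14 dissociation stress genes tested 1 was lower, Hsp90aa1 (-0.29). Krt8 and Krt19 passed in all 5 fits that left out 1 embryo, while Egfl7, Col1a2, Vcan, Mab21l2 and Hsp90aa1 each failed without Isl1Cre E8.75, Nkx2-5Cre E8.25 or Nkx2-5Cre E8.75. The part of these markers in the results above was not tested.

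Set against the Nppa-high class alone, members had atrial, atrioventricular canal and BMP pathway genes among those higher and ventricular genes among those lower. Of 9038 genes tested, 222 differed (2.46%), 91 higher (1.01%) and 131 lower (1.45%), with a median over all genes of -0.02. Of 14 atrial genes tested 3 were higher and none was lower (median 0.36). Nr2f2 was higher by 3.43 ± 0.50 (adjusted p = 0.00137), Nr2f1 by 2.89 ± 0.59 (adjusted p = 0.0164) and Tbx5 by 1.30 ± 0.22 (adjusted p = 0.00427). Myh6 averaged 2137 CPM in members and 1456 CPM in the Nppa-high class, was higher in 4 of 5 embryos and did not pass (adjusted p = 0.0600). Of the 6 tested genes of the atrioventricular canal, the slow-conducting muscle between atria and ventricles, 4 were higher and none was lower (median 1.71). Of 16 BMP and TGF-beta genes tested 5 were higher and none was lower (median 0.71), and of 12 outflow tract genes 2 were higher and none was lower (median 0.21), namely Msx2, which also stands in the canal list, and the muscle factor gene Mef2c at 0.74.

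Bmp2 had 82.9 and 67.4 CPM in Isl1Cre members at E8.25 and E8.75 and 37.5, 60.7 and 34.6 CPM in Nkx2-5Cre members at E8.25, E8.75 and E9.25, against 1.86, 2.30, 13.9, 13.0 and 5.80 CPM in the Nppa-high cells of the same embryos. The ranges did not overlap (2.99 ± 0.46, adjusted p = 0.00210). Bmp2 stands in both the canal list and the BMP list, so the counts of these lists overlap. Tbx2, a T-box repressor of chamber genes known to act on Nppa, was higher by 2.80 ± 0.53 (adjusted p = 0.00945), its relative Tbx3 by 1.83 ± 0.45 (adjusted p = 0.0398) and the BMP target Msx2 by 1.58 ± 0.37 (adjusted p = 0.0349). The Nppa-high class was chosen for high Nppa, so a low level of Nppa in members is no finding. Genes that vary with or against the set genes from cell to cell also differ by the choice of the 2 classes. The p-values of this comparison say only how alike the difference was over embryos. Against all other gated cells, Tbx2 differed by 0.76 (adjusted p = 0.460) and Msx2 by 0.15 (adjusted p = 0.866), and Bmp2 averaged 56.6 CPM in members and 53.8 CPM in the outflow class, with members higher in 3 of 5 embryos.

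Among the genes leading this comparison at a mean log2 level of at least 5 were Igfbp5, an insulin-like growth factor binding protein gene, at 1.91 ± 0.18 (adjusted p = 2.74e-05), and further Fam78a at 1.39, the transporter gene Abcc5 at 1.38, Tbx5 at 1.30 and Ppp1r15a at 1.23. Those that fell most at that level were the cyclin gene Ccnd2 at -1.87, Lifr at -1.74, Lmod3 at -1.73, Slmap at -1.53, the calcineurin regulator gene Rcan1 at -1.41 and Car4 at -1.33. Of 13 ventricular genes tested 1 was higher (Hand1, 1.47) and 7 were lower (median -0.91). Among these were Pln at -3.26, Irx2 at -2.62 and Myl2 at -0.91 ± 0.14 (adjusted p = 0.00210). Connexin 43, Gja1, was lower by 2.13 on the log2 scale. The count of 222 fell to 58 without Nkx2-5Cre E8.75, 70 without Isl1Cre E8.75 and 92 without Nkx2-5Cre E8.25.

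**Figure D2:**
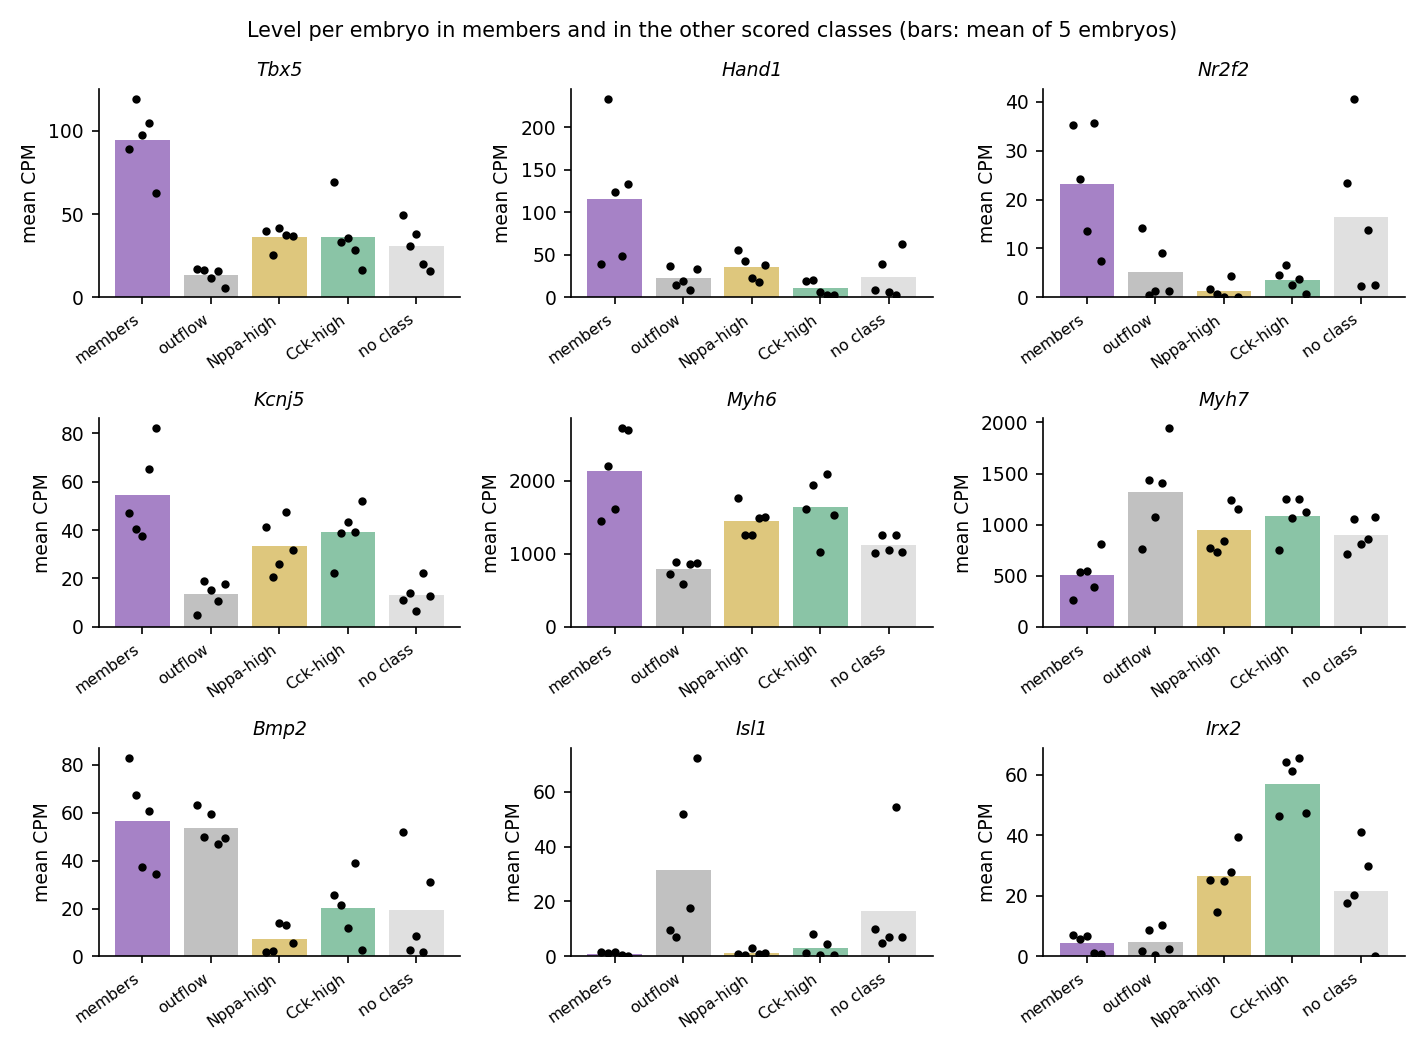
Mean CPM of 9 genes in members, the outflow, Nppa-high and Cck-high classes and cells of no class; bars are means over the 5 embryos with at least 5 members, and points are the embryos. Tbx5 in members lies above every other class within each embryo, Bmp2 averages 56.6 CPM in members and 53.8 CPM in the outflow class, and Irx2 averages under 5 CPM in both.

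Across the 4 other classes the order of levels differed by gene. Tbx5 averaged 94.6 CPM in members, 36.6 CPM in the Cck-high class, 36.4 CPM in the Nppa-high class, 30.9 CPM in cells of no class and 13.2 CPM in the outflow class, and members were highest in 5 of 5 embryos against each. Nr2f2 averaged 23.2 CPM in members and 16.5 CPM in cells of no class, with members higher in 4 of 5 embryos, and at most 5.25 CPM in the other 3 classes. Hand1 averaged 116 CPM in members and 35.3 CPM in the Nppa-high class, where members were higher in 4 of 5 embryos. Irx2 averaged 4.31 CPM in members, 4.79 CPM in the outflow class and 57.0 CPM in the Cck-high class, and members were above the outflow class in 2 of 5 embryos. Isl1 was likewise near 0 in members (0.951 CPM) and in the Nppa-high class (1.30 CPM), and averaged 31.6 CPM in the outflow class.

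The 10 members at E9.25 differed from the earlier ones in several levels. Vsnl1, a gene of the rule, had 45.9 and 63.4 CPM in Isl1Cre members at E8.25 and E8.75 and 37.5 and 69.7 CPM in Nkx2-5Cre members at the same days, but no count in any of the 10 cells at E9.25. It was nearly absent from the other gated cells of that day as well, with a count in 1 of 86 Isl1Cre cells and 5 of 147 Nkx2-5Cre cells. By the limit of 3 counts, 0 of 10 cells allows a share of cells with a count of up to 30.0%. This limit covers counting error only. It takes the cells as independent, which cells of 1 embryo are not, and the rule chose them partly by Vsnl1. Gal, also of the rule, was at 269 CPM in the 3 Isl1Cre cells and 514 CPM in the 7 Nkx2-5Cre cells. These are descriptions, since the score used both genes. Outside the rule, Tbx5 stood at 84.3 CPM in the 3 Isl1Cre members at E9.25 and 62.7 CPM in the 7 Nkx2-5Cre members, against 47.5 and 17.5 CPM in the other gated cells. Stard10 was at 0 and 1.05 CPM in these members, against 10.5 and 4.71 CPM in the other gated cells.

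Myl2 was lower in members than in other gated cells of the 4 embryos at E8.25 and E8.75 and higher at E9.25. It had 1011, 2569.6 and 8850.2 CPM in Isl1Cre members at E8.25, E8.75 and E9.25, against 1652, 3822 and 7312 CPM in the other gated cells. It had 2299.9, 2342 and 7164 CPM in Nkx2-5Cre members at these days, against 3074, 4400.2 and 5508 CPM in the other gated cells. Ccnd2, cyclin D2, took the same course, with 53.8, 72.1 and 596 CPM in Isl1Cre members, against 260, 226 and 405 CPM in the other gated cells. In Nkx2-5Cre members it had 116, 70.4 and 624 CPM, against 342, 288 and 537 CPM in the other gated cells. At E9.25 the cells are thus called atrial or inflow-like by the rule, with Tbx5 and the ratio of Myh6 to Myh7 above the other gated cells as in the earlier members, and Stard10, Myl2 and Ccnd2 on the other side of these cells from the earlier members. The difference between stages was not tested beyond the slopes below, and 10 cells give little precision.

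Within members no gene differed between the lineages with stage as a covariate, 0 of 9147 (0%). Without adjustment 295 genes had a p under 0.05, edgeR called 1 gene and DESeq2 11. On simulated levels this fit, with 2 residual degrees of freedom over the 5 embryos, recovered 11% of genes changed by 1 (log2). It recovered 30% of those changed by 2, so differences of either size would mostly be missed. The simulated noise was taken from differences between members and other gated cells within embryos. It leaves out the spread between embryos, so these shares may be too high. Tbx5 differed by 0.18 ± 0.33 (Isl1Cre minus Nkx2-5Cre, adjusted p = 1.00), Nr2f2 by 0.67 ± 0.63, Hand1 by 0.34 ± 0.64 and Myh6 by -0.13 ± 0.20. Hand1 changed order between stages, at 39.3 CPM in Isl1Cre members and 124 CPM in Nkx2-5Cre members at E8.25, and at 233 CPM in Isl1Cre members and 48.4 CPM in Nkx2-5Cre members at E8.75. The lineage difference of members was not separable from that of the other gated cells either, with 0 of 9147 genes passing (0%), 308 genes at an unadjusted p under 0.05, none by edgeR and 1 by DESeq2.

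With stage, 1 of 9147 genes changed in members (0.0109%), and none rose. Dqx1, a DEAQ-box helicase gene, had 40.6 and 6.47 CPM in Isl1Cre members at E8.25 and E8.75 and 387, 66.5 and 4.96 CPM in Nkx2-5Cre members at E8.25, E8.75 and E9.25. It fell by 5.78 ± 0.55 per day on the log2 scale (adjusted p = 0.00429). The 3 Isl1Cre members at E9.25, outside the fit, had 53.4 CPM. Myl2 changed by 1.88 ± 0.36 per day (adjusted p = 0.318), Myh6 by 0.87 ± 0.26 (adjusted p = 0.342) and Tnni3 by 1.31 ± 0.44 (adjusted p = 0.342). Without adjustment 1163 genes had a p under 0.05, edgeR called 1 gene and DESeq2 64. Of the lists, 34 of 36 G2 and M phase genes and 26 of 28 S phase genes had slopes below 0, with medians of -0.99 and -0.82, and 56 of 57 oxidative phosphorylation genes had slopes above 0 (median 0.35), against a median of -0.13 over all genes. No gene of these lists passed the test. The only E9.25 embryo in these slopes was Nkx2-5Cre, with 7 members, and the 3 Isl1Cre members of that day are outside them. Slopes in the other gated cells were not tested.

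**Figure D3:**
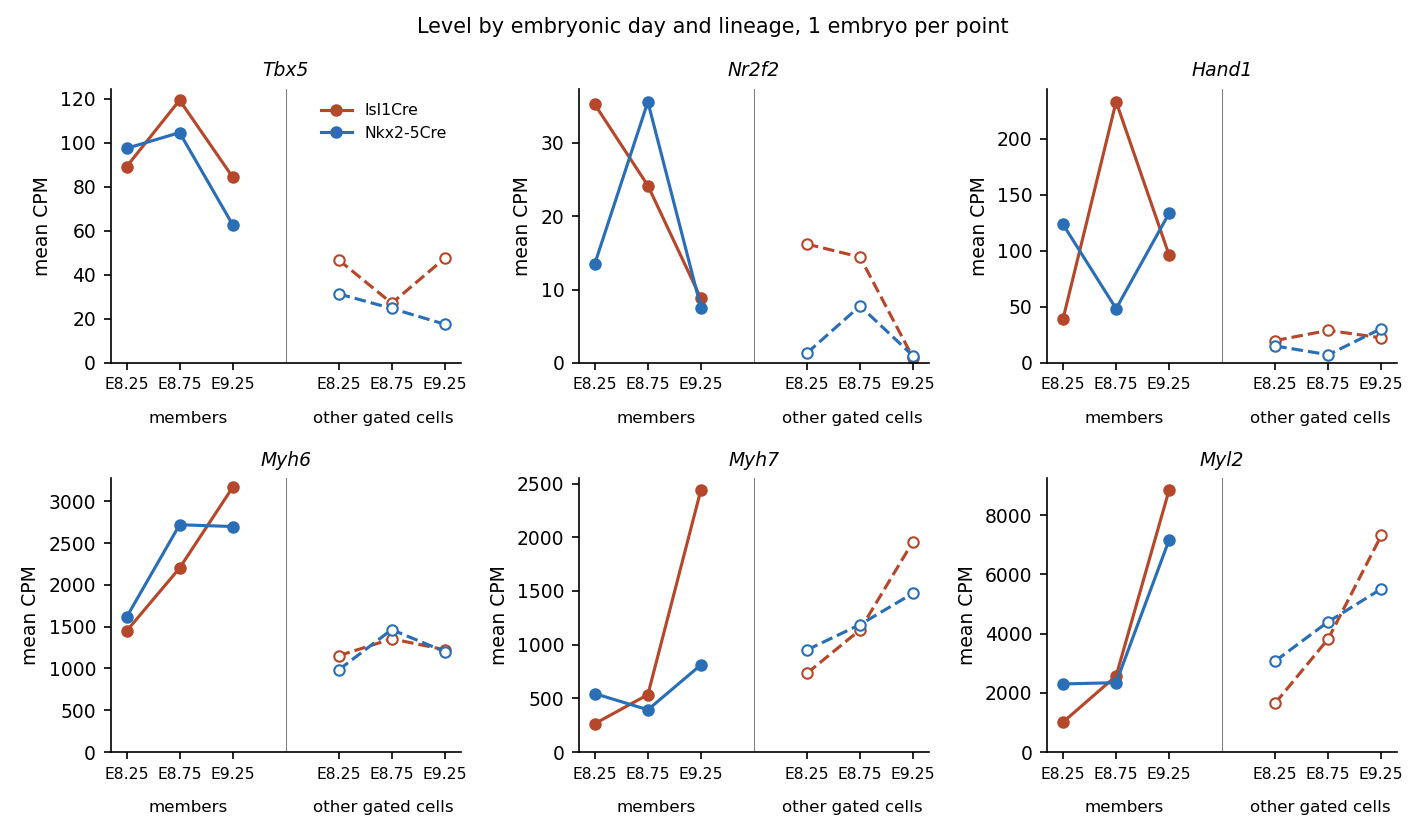
Mean CPM by embryonic day in members (left of each panel) and other gated cells (right), with Isl1Cre and Nkx2-5Cre as lines and 1 embryo per point. Tbx5 in members stays above the other cells at every day, and Myl2 in members is highest at E9.25, where 3 and 7 cells make up the points.

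Because Tbx5, one of the factors that rose, binds T-box sites, the promoters of the genes that changed were searched for the letters AGGTGT on both strands, and for the nuclear receptor half-site AGGTCA and the GATA letters AGATAA, in the 300 bases from 250 before to 50 after each RefSeq start (GRCm38.p6). A promoter was listed for 63 of the 92 genes that were higher, 88 of the 113 that were lower and 7067 of the 9147 tested. AGGTGT was in the promoters of 15.9% of the higher genes, 10.2% of the lower genes and 11.9% of all tested genes, against 15.7% of all 27025 promoters in the table. AGGTCA was in 11.1% of the higher genes, 19.3% of the lower genes, 14.2% of all tested genes and 18.1% of all promoters, and AGATAA in 4.76% of the higher genes, 11.4% of the lower genes, 7.20% of all tested genes and 12.7% of all promoters. A match of 6 letters is a description of the sequence and not a binding site. Itga6 and Cdo1 among the markers, and Hand1, Tbx5, Fbxo32 and Gm14057 among the leading genes, had no promoter listed and were not searched. Of the markers, Gal held AGGTGT at 249 and 153 bases before its start, and of the 12 leading higher genes Tubb2a held it at 222 bases and Fitm1 at 93 bases before theirs, on the opposite strand, where it reads ACACCT. The 250 bases before the start of Gal, Tubb2a and Fitm1 follow, read 5′ to 3′ along the gene, with the T-box letters in capitals.
Gal, chr19:3414545-3414794, minus strand: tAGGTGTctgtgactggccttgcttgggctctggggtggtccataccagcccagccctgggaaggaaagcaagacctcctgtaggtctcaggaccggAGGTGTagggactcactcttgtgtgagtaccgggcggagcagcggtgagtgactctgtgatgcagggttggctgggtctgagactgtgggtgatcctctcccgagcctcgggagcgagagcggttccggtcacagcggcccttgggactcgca
Tubb2a, chr13:34078009-34078258, minus strand: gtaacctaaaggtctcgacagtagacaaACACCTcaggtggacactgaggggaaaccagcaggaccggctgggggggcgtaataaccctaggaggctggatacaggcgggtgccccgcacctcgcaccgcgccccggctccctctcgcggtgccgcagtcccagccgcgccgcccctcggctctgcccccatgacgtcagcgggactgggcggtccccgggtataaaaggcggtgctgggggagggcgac
Fitm1, chr14:55575424-55575673, plus strand: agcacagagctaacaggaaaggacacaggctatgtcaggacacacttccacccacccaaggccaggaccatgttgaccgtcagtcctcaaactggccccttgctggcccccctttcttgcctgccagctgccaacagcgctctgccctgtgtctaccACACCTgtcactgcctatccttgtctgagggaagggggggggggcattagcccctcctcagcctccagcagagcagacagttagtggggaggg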

How the data were processed

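Single cells of mouse embryonic hearts were picked by mouth pipette after sorting or trypsin treatment and sequenced with a modified Smart-seq2 protocol that captures the 3' end with barcoded oligo(dT), per the labels' protocols. The authors deposited CPM per gene and cell for 23154 genes, and mm10, TopHat2 2.0.12, HTSeq and CASAVA 1.8 are named in the submitters' processing notes. Whether the CPM come from reads or molecular identifiers, and whether strand was used, is not stated there. Whole counts were recovered from the CPM steps of each cell, with 100% of low values whole within 0.1 of a step; 10 gated cells, 3 of them members, stayed out of the count tests.

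CPM was averaged over the members and over the other gated cells of each embryo with at least 5 members (5 of 6 embryos), scaled by TMM (edgeR 4.0.16) and set to log2(CPM + 1), which understates changes of low genes. Genes averaging 5 CPM or more over both sides of a comparison together were tested with limma 3.58.1 (trended, moderated), paired by embryo. A gene could thus enter through 1 side alone. Benjamini-Hochberg adjustment ran over all genes fitted, the set genes and Tnnt2 included, with a threshold of 0.05. This test was chosen because the files hold CPM and not counts; edgeR's quasi-likelihood test called 176 genes and DESeq2 1.42.0 called 392 on the recovered counts, against 205. Lineage and stage entered 1 model over the 5 embryos' members. Shares were tested by two-sided exact permutation over embryos, with exact Clopper-Pearson intervals. On simulated levels of 9291 genes the member comparison recovered 53.1% of genes changed by 1 and 82.8% of those changed by 2 (log2). Cells were picked one by one, so doublets were not called.

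The members and gene lists were chosen with earlier results of these data known. Named genes were the called genes with a mean log2 level of at least 5 and 1 sign in every embryo, the 12 largest changes of each sign (6 in the other comparisons), with the regional lists and examples of the other lists. Some of these genes are not reported here. Promoters are RefSeq's, of GRCm38.p6, and gene positions are GENCODE's on mm10. Alternatives were the filter, pseudocount, scaling, depth, score threshold, replicate unit and tool, and leaving out each embryo and library.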

Additional observations from a re-analysis of the deposited data

Results flagged for a closer look

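Of 103 genes whose difference between members and other gated cells was examined embryo by embryo, 9 had 1 embryo far from the other 4; chance alone marks about 1 in 20. The Nkx2-5Cre E9.25 embryo, with 7 members, was the distant one for 8 of them. There the log2 difference was 1.61 for Nav2 (0.79 to 0.90 in the other 4 embryos), -1.47 for Stard10 (1.49 to 2.63), -2.29 for Rarb, a retinoic acid receptor gene (-0.69 to -0.19), 0.18 for Mpped2 (-0.51 to -0.36), -0.48 for Acta2 (-0.20 to -0.13), -0.24 for Tnnt1 (-1.45 to -1.16), -0.14 for Dut (-0.50 to -0.40) and 0.14 for Vcan (-0.93 to -0.65). In the Isl1Cre E8.75 embryo the difference of Actc1 was 0.43, against 0.18 to 0.22 in the other 4 embryos. Of these genes Nav2, Acta2, Actc1, Tnnt1, Dut and Vcan passed the test over all embryos. The part of the small number of cells in these values was not tested.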

How the results depend on the processing

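In the comparison with all other gated cells, 66 called genes of the text kept 1 sign in the 30 alternatives (29 for 9 of them, which were not tested where log2 values were averaged over cells). Of the 66, 8 were called in every alternative they entered, and of 39 genes not called 13 were called in at least 1. The 30 are not all separate fits. Leaving out Isl1Cre E9.25, or its only library, repeats the main fit with its 205 genes. The setting of at least 10 cells per unit is the same fit as that without Nkx2-5Cre E9.25 or without its replicate 1, each with 523 genes. The 205 genes of members against other gated cells became 16 with no filter on low values, 474 with libraries as units, 443 with libraries and the replicate block, 79 at 20000 counts per cell, 523 with at least 10 cells per unit, 392 with DESeq2, and 59 to 523 with an embryo or library left out. The 222 genes against the Nppa-high class became 6, 407, 389, 80, 334, 466 and 58 to 266 under the same settings. Libraries of 1 embryo are not independent, so their counts are too high. For lineage in members, 0 genes became 50 with at least 10 cells per unit, 1 with edgeR, 11 with DESeq2 and 0 to 67 with an embryo or library left out. For stage, 1 gene became 0 with no filter, 27 with libraries, 18 with the replicate block, 85 with at least 10 cells, 64 with DESeq2 and 0 to 392 on leaving out. For the lineage difference of members against other cells, 0 became 15, 1 with DESeq2 and 0 to 35. Fits of lineage or stage without an embryo have 1 residual degree of freedom. The cause of these differences was not tested. Same-numbered libraries of different groups correlated at -0.0282 to 0.168 in their deviations, 1 of 10 pairs over 0.1. Whether same-numbered libraries share a batch was not tested. The stage slope of the share ran from -50.2 to 8.51 points per day and the lineage difference of the share from -13.4 to -1.88 points with an embryo or library left out. Comparing only with cells of the 3 other classes, chosen after seeing the data, gave 189 genes.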

Other observations

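Among gated cells of no class, Nr2f2 averaged 16.5 ± 16.0 CPM, against 23.2 ± 12.6 CPM in members (SD, n = 5 embryos), and these cells held the lowest median depth, 62228 counts per cell. Tnni3 averaged 790.1 ± 377 CPM in members, 576 ± 226 CPM in the Nppa-high class and 158 ± 78.6 CPM in the outflow class. Trdn averaged 287 CPM in members and 289 CPM in the Cck-high class, and 67.8 CPM in the outflow class. These values were not tested between classes beyond the comparisons given.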
